A study of Rattus norvegicus with 6 samples.

Results

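Cadherins are calcium-dependent adhesion proteins of the cell surface, and the protocadherins are their largest branch in the brain. The genes described here are the rows of a rat hippocampal expression table whose symbol begins with Pcdh, or is Cdh followed by a number, and whose mean over the 6 libraries was at least 10 normalised read counts. They number 56 of 64 rows with such a symbol and of 32883 rows in the table. They comprise 29 clustered protocadherins (3 alpha, 16 beta and 10 gamma rows), 11 non-clustered protocadherins and 16 numbered cadherins. The other 8 rows lay well below the limit: the highest of them, Cdh1, averaged 2.13, and the lowest row kept, Pcdh12, averaged 10.7.

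The cultures were primary hippocampal cells of Wistar rats taken on postnatal day 0, which hold neurons and glia together. Between days 13 and 15 in vitro, 3 cultures received a mixture that potentiates synapses chemically (cLTP, for long-term potentiation): 50 µM forskolin, which activates adenylyl cyclase, 50 nM rolipram, which inhibits cyclic AMP phosphodiesterases, and 200 µM picrotoxin, which blocks GABA-A receptors. The 3 control cultures received the solvent DMSO alone, and no gene was altered in either group. The sources used here do not give the time from treatment to harvest. Nor do the labels say whether the cultures came from separate litters, and if not the p-values measure technical spread only. The labels number the cultures alike in both groups and do not say whether equal numbers share a preparation.

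Classical cadherins bind their own kind across the synaptic cleft and are tied through catenins to actin; N-cadherin (Cdh2) is the main type I form at hippocampal synapses, and the type II forms differ between neuron classes. The clustered protocadherins are made from arrays of alternative first exons, each with its own promoter, and give single neurons a surface identity used in self-avoidance. The non-clustered delta protocadherins fall into the delta-1 group (here Pcdh1, Pcdh7 and Pcdh9) and the delta-2 group (Pcdh8, Pcdh10, Pcdh17, Pcdh18 and Pcdh19). Pcdh8, also called arcadlin, was first isolated from rat hippocampus as a transcript induced by neuronal activity, and its protein draws N-cadherin away from the synaptic surface.

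Libraries ranged from 10668973 to 12776185 recovered reads, and 3 reads corresponded to a value of 2.63 to 3.38. Values are not divided by gene length, so levels are compared between libraries and not between genes. Markers of neurons (such as Syt1 and Snap25), astrocytes (Gfap, Aqp4) and inhibitory neurons (Gad1, Gad2) were abundant in every library. Of the endothelial markers, Cldn5 and Tek averaged under 10, while Flt1 averaged 10.4 and Kdr 32.5. Of the mural markers, Rgs5 and Acta2 averaged under 10, while Pdgfrb averaged 212 and Notch3 505. Summed values of 5 microglial markers were 239 and 236 in culture 3 of cLTP and of DMSO, and between 2.25 and 17.1 in the other 4 libraries. A lower value in such bulk samples can mean fewer cells of a type or less RNA per cell, and these cannot be told apart.

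cLTP changed few of these genes by a large factor. With limma over all 17315 genes tested, 1 of the 56 passed an adjusted p of 0.05, Pcdh8, which was higher after cLTP. That is 1.79% of the group, against 10.7% of tested genes with a mean of at least 10 (6.68% higher and 4.02% lower). The median log2 fold change of the 56 genes was -0.00, and that of all such genes was 0.00. Same-numbered cultures deviated together across genes, so values from a second fit, blocked by culture, stand beside those of the first. With the block 10 of the 56 passed (17.9%, against 27.9% of tested genes with a mean of at least 10), 5 higher and 5 lower (against 15.1% and 12.8%). The 10 were Pcdh8, Pcdh10, Pcdh17, Pcdh20 and Cdh6, which were higher, and Pcdh1, Cdh9, Cdh10, Cdh11 and Cdh12, which were lower. Of the 29 clustered protocadherins 0 passed in either fit. Values of the 2 groups did not overlap in 6 of the 56 genes (10.7%, against 31.1% of tested genes with a mean of at least 10).

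**Figure D1:**
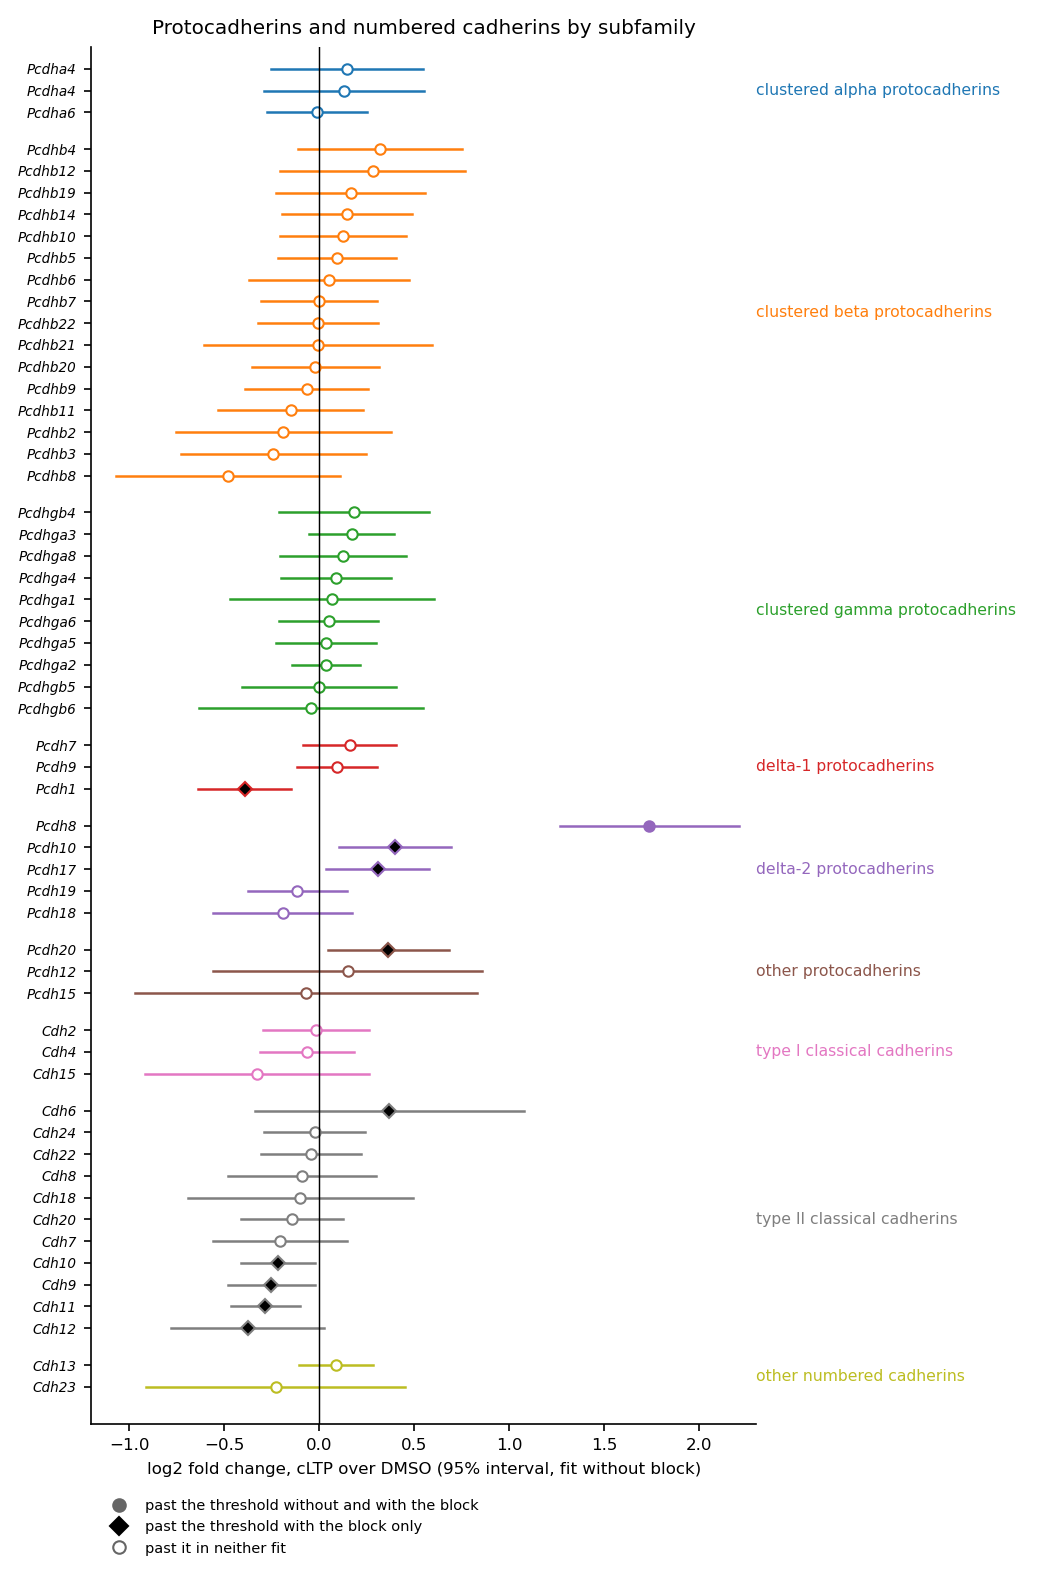
Log2 fold change of each gene, cLTP over DMSO, with its 95% interval from the fit without a block (n = 3 libraries per group), in the order of the subfamilies. Pcdh8 stands at 1.74, and the other 55 genes lie between -0.48 and 0.40; black diamonds mark the 9 genes that passed only with the culture block.

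Pcdh8 was the exception in size. Its normalised read counts were 7526, 6404 and 8976 in cLTP cultures 1, 2 and 3, against 2701, 1630.3 and 2641 in DMSO cultures 1, 2 and 3. The lowest cLTP culture thus lay far above the highest DMSO culture. Means were 7635 ± 1290 in cLTP and 2324 ± 602 in DMSO (SD, n = 3 each), a log2 fold change of 1.74 with a standard error of 0.20 and a 95% interval from 1.27 to 2.21 (3.34-fold, limma adjusted p = 0.00124). Within cultures 1, 2 and 3 the ratio of cLTP to DMSO was 2.79, 3.93 and 3.40. With the block the adjusted p was 7.11e-06, and the call held without any 1 library (limma adjusted p from 0.000563 to 0.00799). Without culture 3 of both groups it was 3.31-fold and did not pass without the block (limma adjusted p = 0.0540), but passed with it (2.72e-05). That last fit left 1 residual degree of freedom per gene.

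Summed values, which like all values here are not corrected for gene length, shifted with this one gene, so the shares describe reads and not molecules. Pcdh8 made up 49.7%, 44.6% and 50.8% of the summed values of the 11 non-clustered protocadherins in cLTP cultures 1, 2 and 3, and 24.8%, 17.7% and 23.6% in the DMSO cultures. The other 7 delta protocadherins together summed to 7307 ± 568 in cLTP and 7488 ± 396 in DMSO (SD, n = 3 each), and these groups overlapped. The delta-2 group as a whole summed to 10818 ± 1342 in cLTP and 4984 ± 638 in DMSO.

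**Figure D2:**
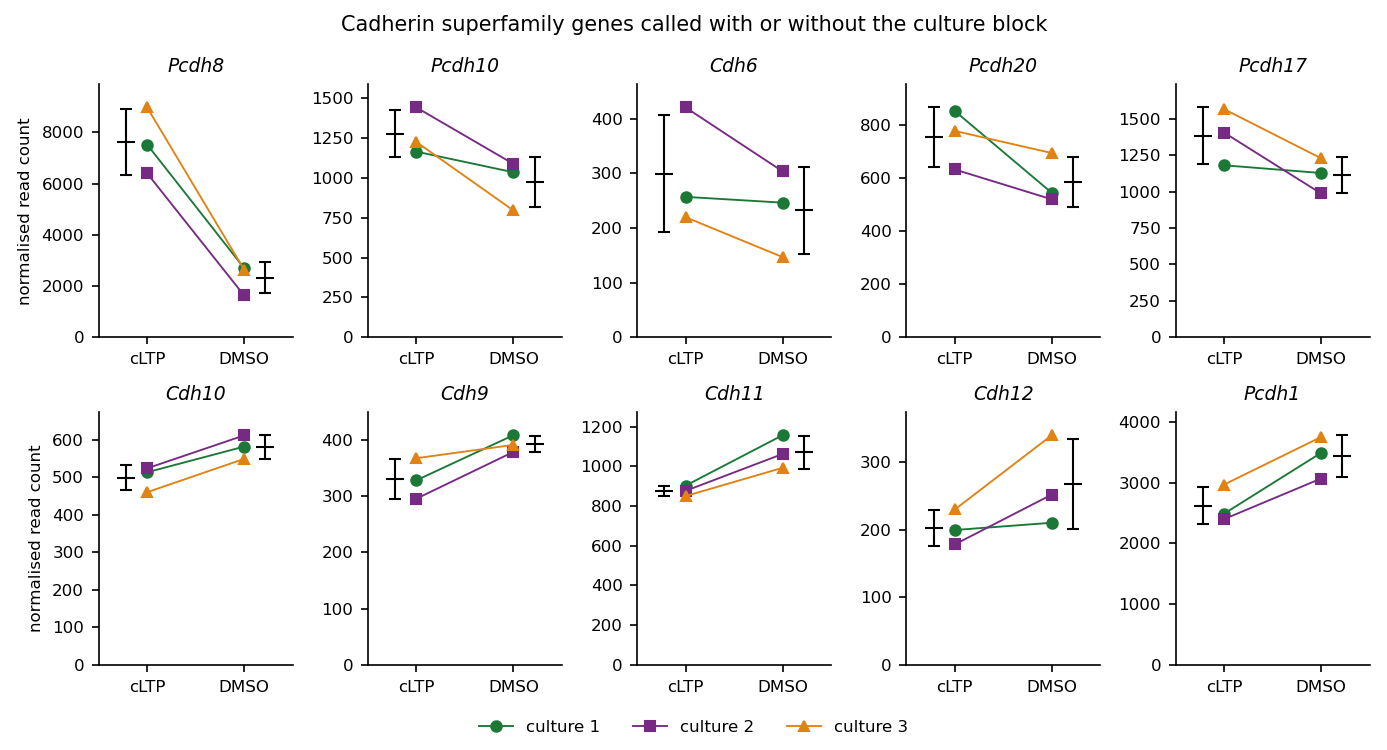
Normalised read counts of the 10 genes that passed with the culture block, by library; lines join same-numbered cultures, and black bars give the mean and SD of 3 libraries. Pcdh8 in cLTP (6404 to 8976) lies far above DMSO (1630.3 to 2701), while the other 9 genes differ by small factors and shift the same way in each culture.

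The stretch around each gene's start, from 250 bases before to 50 bases after it, was read from the RefSeq promoter table (build GRCr8), in which 41 gene symbols of the group were found once. The windows shown belong to the gene with the largest change, to the gene with most copies of the core of the cyclic AMP response element (CRE), and to a gene that holds this core but was lower after cLTP. Capitals mark each match, on either strand, to the CRE core (TGACG), the TATA box (TATAAA) and the CCAAT box (CCAAT, read as ATTGG on the other strand). The full CRE (the core followed by TCA), the AP-1 site (TGANTCA), the CArG box and CGCT were also searched on both strands.
Pcdh8, chr15:61612041-61612340, minus strand: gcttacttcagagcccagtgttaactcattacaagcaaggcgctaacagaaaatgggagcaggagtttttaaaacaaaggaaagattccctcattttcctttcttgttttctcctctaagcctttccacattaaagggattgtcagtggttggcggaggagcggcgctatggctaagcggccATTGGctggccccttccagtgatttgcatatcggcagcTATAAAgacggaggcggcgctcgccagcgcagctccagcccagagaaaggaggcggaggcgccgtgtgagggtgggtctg
Pcdh10, chr2:130553188-130553487, plus strand: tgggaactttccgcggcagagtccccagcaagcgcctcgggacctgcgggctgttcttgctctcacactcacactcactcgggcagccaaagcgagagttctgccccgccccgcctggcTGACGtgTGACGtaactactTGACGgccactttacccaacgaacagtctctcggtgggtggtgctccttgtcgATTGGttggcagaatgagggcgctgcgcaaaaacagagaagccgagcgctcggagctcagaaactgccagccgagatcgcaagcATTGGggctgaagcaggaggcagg
Cdh10, chr2:70355439-70355738, plus strand: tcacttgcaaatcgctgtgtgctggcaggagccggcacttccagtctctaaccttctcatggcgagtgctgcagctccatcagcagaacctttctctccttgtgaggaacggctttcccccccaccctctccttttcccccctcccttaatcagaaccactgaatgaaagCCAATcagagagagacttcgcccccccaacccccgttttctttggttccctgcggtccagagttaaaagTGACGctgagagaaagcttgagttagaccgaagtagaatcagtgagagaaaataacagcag

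The Pcdh8 window held a TATA box at -30 to -25 from the start and a CCAAT box at -68 to -64, and no match to the CRE core, the AP-1 site or the CArG box. A TATA box was found in 5 of the 41 windows and in 14.2% of all 33465 windows of this length. Pcdh8 was the only gene outside the clusters with one. The Pcdh10 window held 3 CRE cores between -131 and -107, and 1.11% of all windows held 3 or more. A single core stood at -11 to -7 in the Cdh10 window. At least 1 core was found in 7 of the 41 windows (17.1%), against 21.2% of all windows, and a full CRE in 0 of the 41, against 1.83%. The CGCT core of the conserved element of clustered protocadherin promoters was found in 19 of 20 clustered windows (95%), in 18 of 21 windows of the group outside the clusters, and in 60.9% of all windows. A match describes letters only, and no binding was measured.

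Among the other delta-2 genes, Pcdh10 and Pcdh17 were modestly higher after cLTP. Pcdh10, which promotes removal of excitatory synapses, was at 1164, 1442 and 1225 in cLTP cultures 1, 2 and 3 and at 1035, 1088 and 796 in DMSO cultures. The lowest cLTP culture lay above the highest DMSO culture. Its log2 fold change was 0.40 with a standard error of 0.13 (1.32-fold, limma adjusted p = 0.107 without and 0.000777 with the block). Pcdh17, which acts in the assembly of presynaptic terminals, was at 1183, 1407 and 1569 in cLTP and at 1129, 989 and 1231 in DMSO. Its groups overlapped, yet each cLTP culture exceeded its own DMSO culture, by ratios of 1.05, 1.42 and 1.27 (1.24-fold, limma adjusted p = 0.175 without and 0.00527 with the block). Pcdh19, an X-linked gene whose loss causes epilepsy in humans, was at 399.8 ± 45.6 in cLTP and 433.5 ± 48.1 in DMSO (log2 fold change -0.12, 95% interval from -0.38 to 0.14). Pcdh18 was at 119.9 ± 14.9 in cLTP and 138 ± 24.3 in DMSO (log2 fold change -0.19, 95% interval from -0.56 to 0.17), and neither gene passed in either fit.

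In the delta-1 group the gene that differed was lower. Pcdh1 was at 2488, 2398 and 2967 in cLTP cultures 1, 2 and 3 and at 3488, 3066 and 3749 in DMSO cultures. All cLTP values lay below all DMSO values, and within cultures the ratios were 0.713, 0.782 and 0.791. The log2 fold change was -0.39 with a standard error of 0.11 (0.762-fold), with a limma adjusted p of 0.0582 without the block and 8.16e-06 with it. Pcdh1 also passed in DESeq2 on recovered reads (adjusted p = 0.0205) and not in edgeR (0.0577). Pcdh9 was at 950.3, 1025 and 1103 in cLTP and at 893, 934 and 1059.5 in DMSO, with overlapping groups (log2 fold change 0.09, 95% interval from -0.12 to 0.30). Pcdh7 was at 480.2 ± 29.9 in cLTP and 432 ± 56.4 in DMSO (limma adjusted p = 0.473). Both lay past the threshold in neither fit.

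Of the remaining non-clustered protocadherins, Pcdh20 was at 851, 631 and 776 in cLTP cultures 1, 2 and 3 and at 543, 519 and 693 in DMSO cultures. The groups overlapped through cLTP culture 2, but the ratio within each culture was above 1 (1.57, 1.22 and 1.12). Its log2 fold change was 0.36 with a standard error of 0.14 (1.29-fold, limma adjusted p = 0.175 without and 0.00338 with the block). Pcdh15, part of the tip link of inner ear hair cells, was at 22.5, 9.33 and 29.5 in cLTP and at 17.1, 17.6 and 24.6 in DMSO. At this depth its 95% interval, from -0.97 to 0.83 on the log2 scale, spans changes of nearly 2-fold in either direction. Pcdh12 was at 11.3 ± 2.72 in cLTP and 10.05 ± 1.88 in DMSO (SD, n = 3 each).

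The type I cadherins did not pass in either fit. N-cadherin, Cdh2, was at 4838, 5828 and 4531 in cLTP cultures 1, 2 and 3 and at 5218, 5696 and 4461 in DMSO cultures. In both groups culture 2 was highest and culture 3 lowest, and the ratios within cultures were 0.927, 1.02 and 1.02. The log2 fold change, -0.02, had 95% bounds of -0.30 and 0.26 (limma adjusted p = 0.961), or of -0.12 and 0.08 with the block. Cdh4, R-cadherin, was at 425, 522 and 528 in cLTP and at 497, 481 and 560.3 in DMSO (limma adjusted p = 0.814). Cdh15, the muscle form, was at 21.0 ± 5.43 in cLTP and 26.4 ± 4.62 in DMSO.

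Of 11 type II cadherins, 0 passed without the block, and with it 4 were lower and 1 higher, against 12.8% and 15.1% of tested genes with a mean of at least 10. A log2 fold change below 0 was found in 10 of the 11 (median -0.14), and in 7003 of those 14095 tested genes (median 0.00). Summed over the 11 genes the values were 3681, 3800.5 and 3723 in cLTP cultures 1, 2 and 3 and 4180.2, 4258 and 4046 in DMSO cultures, without overlap. Cdh11, found at hippocampal synapses and in mesenchymal cells, was at 903, 877 and 851 in cLTP and at 1157, 1062 and 993 in DMSO. All cLTP values lay below all DMSO values (log2 fold change -0.29, standard error 0.08, 0.821-fold, limma adjusted p = 0.0630 without and 0.000950 with the block). edgeR on recovered reads called it lower (adjusted p = 0.0465), and DESeq2 did not (0.0529). Of 4 fibroblast markers 0 passed in either fit, with summed values of 957 to 1057 in cLTP and 999.9 to 1041 in DMSO. Of 4 mural markers, Pdgfrb alone passed, lower after cLTP in both fits, at 94.2 ± 24.7 in cLTP and 329 ± 56.2 in DMSO. Notch3 was at 486 ± 23.7 in cLTP and 524 ± 63.2 in DMSO and passed in neither fit. Rgs5 and Acta2 averaged under 10 and also passed in neither. Summed values of the 4 were 528 to 622 in cLTP and 733 to 972 in DMSO. The part of Pdgfrb or of mural cells in the Cdh11 result was not tested.

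Cdh6, Cdh9 and Cdh10 act at hippocampal synapses in mouse, where they take part in long-term potentiation. Cdh9 was at 328, 295 and 367 in cLTP cultures 1, 2 and 3 and at 408, 378 and 391 in DMSO cultures. The groups did not overlap (0.839-fold, limma adjusted p = 0.185 without and 0.0254 with the block). Cdh10 was at 513, 523 and 459.9 in cLTP and at 581, 611 and 548 in DMSO, again without overlap (0.859-fold, limma adjusted p = 0.182 without and 0.0188 with the block). Cdh6 went the other way within each culture, with 257, 421 and 219.8 in cLTP and 246, 304 and 147 in DMSO. The cultures differed more than the groups (1.29-fold, limma adjusted p = 0.581 without and 0.0111 with the block). Cdh12 was at 199.5, 178 and 229.9 in cLTP and at 210.2, 252 and 339.7 in DMSO. Its groups overlapped through cLTP culture 3 (0.770-fold, limma adjusted p = 0.268 without and 0.0109 with the block). Cdh8 was at 478, 467 and 692 in cLTP and at 529, 516 and 682 in DMSO, and did not pass (limma adjusted p = 0.836 without and 0.374 with the block). The other 5, Cdh7, Cdh18, Cdh20, Cdh22 and Cdh24, had log2 fold changes from -0.21 to -0.03 and passed in neither fit.

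Calls made with the block depended in part on single cultures. Refits with the block on 2 cultures per group, chosen after the data were seen and left with 1 residual degree of freedom per gene, called Pcdh8, Pcdh1, Pcdh10, Pcdh20 and Cdh11 whichever culture was left out. In such refits the variance of a gene came mostly from all genes together. Without culture 1, for example, the limma adjusted p of Pcdh8 was 9.74e-208. These calls therefore do not measure how far a single gene varies between cultures. The block fit on all cultures also left few residual degrees of freedom per gene and drew on the variance of all genes. Its adjusted p-values likewise do not rest on a single gene's own spread between cultures alone. The other 5 of the 10 missed the threshold in some refits, with the same direction as before. Without culture 2 and without culture 3 the limma adjusted p was 0.0562 and 0.102 for Pcdh17, 0.106 and 0.194 for Cdh6, 0.0882 and 0.128 for Cdh10, and 0.0880 and 0.209 for Cdh12. Cdh9 had 0.0860 without culture 1 and 0.183 without culture 2. In those refits the fold stayed near its value from all cultures for Cdh10 (0.860 and 0.870, against 0.859) and Cdh9 (0.857 and 0.869, against 0.839). It was 1.16 and 1.22 for Pcdh17 (against 1.24), 1.25 and 1.201 for Cdh6 (against 1.29), and 0.802 and 0.820 for Cdh12 (against 0.770). All 4 inhibitory neuron markers were higher after cLTP with the block and 0 without it. Of all tested genes with a mean of at least 10, 15.1% were higher and 12.8% lower with the block. Summed values of the 4 markers were 13637, 16307 and 20081 in cLTP cultures and 11929, 14535 and 15947 in DMSO cultures. Of the excitatory markers reported here, Neurod6 was lower with the block (limma adjusted p = 0.112 without it), and Slc17a7 (0.987-fold) and Camk2a (0.994-fold) did not pass. Other markers past the threshold only with the block were Snap25 of neurons, Slc1a3 of astrocytes and Olig2 of oligodendrocyte precursors, which were higher, and Aldh1l1 of astrocytes, which was lower. Their part in these small differences was not tested.

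**Figure D3:**
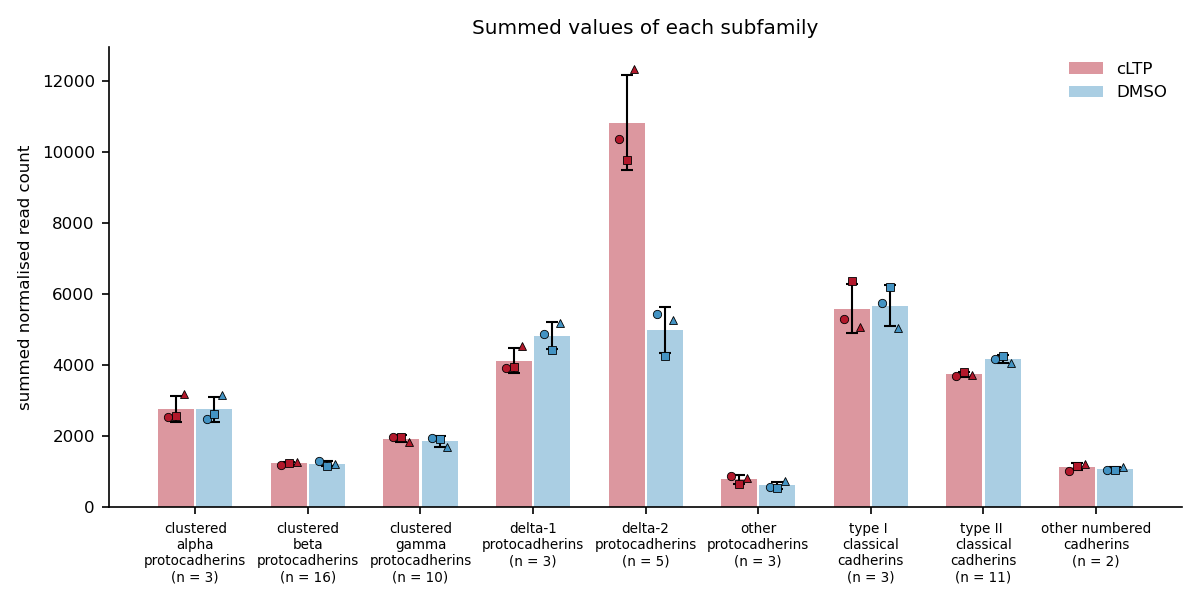
Summed normalised read counts of each subfamily: bars give the mean and SD of 3 libraries, points the single libraries (circle, square and triangle for cultures 1, 2 and 3), with cLTP left of DMSO; n is the number of genes summed. The delta-2 group stands apart (10818 in cLTP, 4984 in DMSO), and the 3 clustered groups have nearly the same sums in cLTP and DMSO.

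T-cadherin, Cdh13, which lacks a cytoplasmic part and is held by a lipid anchor, was at 1011, 1142 and 1192 in cLTP cultures 1, 2 and 3 and at 1005, 1031 and 1106 in DMSO cultures, with overlapping groups (log2 fold change 0.09, 95% interval from -0.11 to 0.28). Cdh23, the tip link partner of Pcdh15, was at 13.5, 16.6 and 24.4 in cLTP and at 27.6, 16.7 and 19.7 in DMSO. Both passed in neither fit. The 8 rows left out by the mean included the endothelial Cdh5, at 1.13, 0 and 2.03 in cLTP and 0, 0.878 and 0 in DMSO, and the epithelial Cdh3, listed at 0 in all 6 libraries.

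The clustered protocadherins stayed near their control levels as a group. Their 29 log2 fold changes ran from -0.48 to 0.32 with a median of 0.05, 17 above and 12 below 0, and the lowest limma adjusted p was 0.341 without and 0.0878 with the block, both for Pcdhb8. With neither edgeR nor DESeq2 did any of them pass. Without the block 0 had an unadjusted limma p under 0.05, and with the block Pcdhb8 had an unadjusted limma p of 0.0247. The 95% interval lay within 2-fold in either direction for 28 of the 29 and within 1.5-fold for 21. Alpha and gamma transcripts share constant exons, and beta genes are close paralogs. The sources used here do not say how reads of shared sequence were counted, so single rows are uncertain.

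In the alpha cluster, the row named Pcdha6 was at 2291, 2366 and 2896 in cLTP cultures 1, 2 and 3 and at 2302, 2433 and 2880.2 in DMSO cultures. The cultures followed the same order in both groups, with culture 3 highest. One of the 2 rows named Pcdha4 (ENSRNOG00000050378) was at 116, 102 and 144 in cLTP and at 98.9, 94.8 and 138 in DMSO. RefSeq joins the alpha genes in a single record, so which first exons these rows cover was not resolved here. In the beta cluster, Pcdhb19 was at 154, 173 and 132 in cLTP and at 168, 136 and 109 in DMSO. Pcdhb9 was at 129.6, 126 and 164 in cLTP and at 164, 132 and 143 in DMSO. In the gamma cluster, Pcdhga2 was at 436, 433 and 446 in cLTP and at 447, 425 and 412 in DMSO, with a narrow 95% interval (log2 -0.14 to 0.21). Pcdhgb5 was at 303, 322 and 232 in cLTP and at 328, 314 and 221 in DMSO, so that culture 3 was low in both groups. Sums over the 16 beta rows were 1233 ± 40.7 in cLTP and 1219 ± 71.9 in DMSO, and over the 10 gamma rows 1926 ± 89.4 in cLTP and 1850.2 ± 151 in DMSO (SD, n = 3 each).

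Of the gamma rows, those named Pcdhgb were low in culture 3 of both groups. Summed over the 3 Pcdhgb rows, values were 635, 622 and 462 in cLTP cultures 1, 2 and 3 and 646, 645 and 419 in DMSO cultures. These rows made up 32.1%, 31.4% and 25.3% of the gamma sum in cLTP and 33.0%, 33.7% and 25.0% in DMSO. The 7 Pcdhga rows summed to 1344, 1356 and 1361 in cLTP and to 1313, 1269 and 1258 in DMSO. Those sums were nearly flat across cultures and did not overlap between groups (ratio 1.06), while 0 of the 7 rows passed in either fit. Taken singly, each of these rows overlapped between groups, and 31.1% of tested genes with a mean of at least 10 did not. Rescaling columns to equal totals moved the median of all genes by -0.11 (log2), and the Pcdhga sum was not recomputed on that scale. Among the Pcdhgb rows culture 3 was lowest relative to the others for Pcdhgb6, at 219, 189.7 and 129 in cLTP and 211, 221 and 126 in DMSO.

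Differences of culture 3 that recurred in both groups were about as frequent here as among all genes. In 18 of the 56 genes culture 3 was the highest of its group in both cLTP and DMSO, and in 14 it was the lowest in both. These are 32.1% and 25.0% of the group, against 24.5% and 26.3% of tested genes with a mean of at least 10. Culture 3 was lower for Cdh6, by -0.58 in cLTP and -0.89 in DMSO on the log2 scale relative to the mean of cultures 1 and 2. For Cdh8 it was higher by 0.55 in cLTP and 0.38 in DMSO. For Cdh2 the standard error of the log2 fold change was 0.12 without the block and 0.05 with it.

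**Figure D4:**
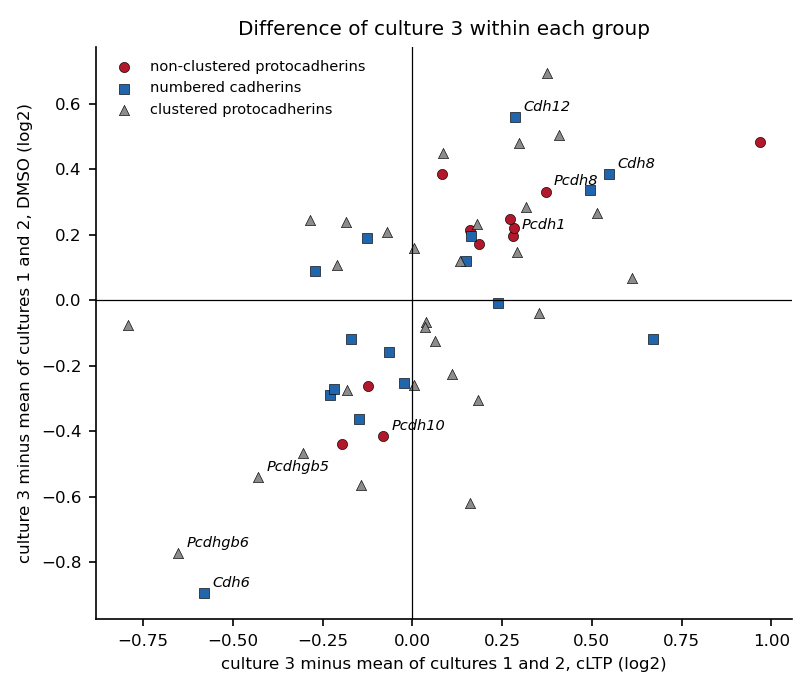
Difference of culture 3 from the mean of cultures 1 and 2 on the log2(value + 1) scale, within cLTP (x axis) and within DMSO (y axis), for each of the 56 genes. Pcdhgb6 (-0.65 in cLTP, -0.77 in DMSO) and Cdh6 lie low in both groups, Cdh8 and Cdh12 high in both.

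Several of the genes called with the block lie near one another. In the gene order of RefSeq (GRCr8), chromosome 15 carries Pcdh8, Pcdh17, Pcdh20 and Pcdh9 in that order with 3, 3 and 1 protein-coding genes between neighbours, and their log2 fold changes were 1.74, 0.31, 0.36 and 0.09. Chromosome 2 carries Cdh6, Cdh9, Cdh10, Cdh12 and Cdh18 with 2, 2, 0 and 0 genes between neighbours, and their log2 fold changes were 0.37, -0.25, -0.22, -0.38 and -0.10. Cdh11 and Cdh8 are neighbours on chromosome 19 with 2 genes between them, at -0.29 and -0.09. On chromosome 18, which holds the 3 clusters, Pcdh1 lay outside them and was lower, while 0 of the 29 clustered rows passed. Whether position and change go together was not tested.

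Genes that work with cadherins were read from 5 lists, of which 76 genes were tested, and 4 were higher and 5 lower after cLTP (11.8%, against 9.02% of all genes tested, 5.71% higher and 3.31% lower). With the block 7 were higher and 17 lower (31.6%, against 23.5%, 12.9% higher and 10.7% lower). Of the 76, 71 had a mean of at least 10. Among all tested genes with such a mean, 10.7% passed without the block and 27.9% with it, closer to the shares of the listed genes. Their median log2 fold change was -0.00, beside 0.00 for all genes tested. Of 10 catenins and armadillo proteins, which join cadherins to actin, 0 passed without the block in limma and 1, Arvcf, had an unadjusted limma p under 0.05. Arvcf was called lower by edgeR (adjusted p = 0.0433) and DESeq2 (0.0203). With the block Ctnna1 was higher and Arvcf lower. Arvcf was at 511 ± 59.8 in cLTP and 702 ± 89.8 in DMSO, with a limma adjusted p of 0.0501 without the block.

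Among 18 other members of the cadherin superfamily, 3 passed in limma, all higher after cLTP, against 5.71% higher of all genes tested. With the block 4 more passed, all lower, against 10.7% lower of all genes tested. Ret, a receptor tyrosine kinase with cadherin repeats, was at 1155, 1308 and 1248 in cLTP cultures 1, 2 and 3 and at 571, 588 and 596 in DMSO cultures. The groups were far apart relative to their spread (2.11-fold, limma adjusted p = 3.65e-05). Celsr1, of planar cell polarity, was at 1929.5 ± 318 in cLTP and 1121 ± 122 in DMSO (1.71-fold, limma adjusted p = 0.00588). Clstn3, a postsynaptic calsyntenin, was at 6464 ± 877 in cLTP and 4156 ± 508 in DMSO (1.55-fold, limma adjusted p = 0.0130). Clstn3 lost its call without cLTP 2, DMSO 1 or DMSO 2 (0.0512 to 0.0690).

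**Figure D5:**
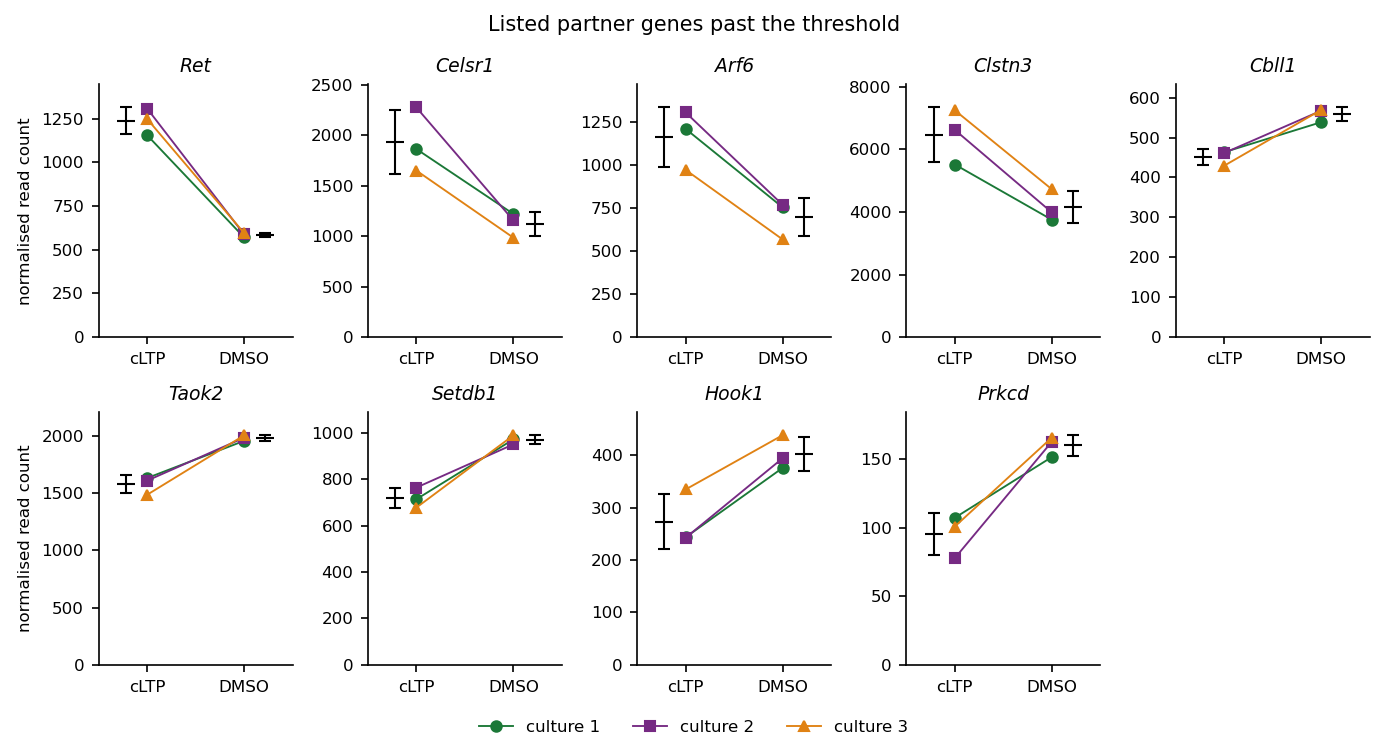
Normalised read counts of the 9 listed partner genes that passed without the block, by library; lines join same-numbered cultures, and black bars give the mean and SD of 3 libraries. Ret (1155 to 1308 in cLTP, 571 to 596 in DMSO) has the largest ratio between the groups, and Taok2 and Setdb1 lie lower in every cLTP culture.

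No partner of protocadherin signalling passed as higher. Of 16, Taok2 and Prkcd were lower in limma, and 3 were lower with the block. Taok2, the kinase that binds Pcdh8 in rat neurons, was at 1631, 1608 and 1485 in cLTP cultures 1, 2 and 3 and at 1956, 1983 and 2004 in DMSO cultures. The groups did not overlap (0.795-fold, limma adjusted p = 0.0200 without and 9.96e-05 with the block). The third gene lower with the block was Mapk14, the kinase through which Taok2 acts, at 811 ± 15.9 in cLTP and 928 ± 37.1 in DMSO (limma adjusted p = 0.150 without and 0.0174 with the block). Prkcd, a protein kinase C, was at 95.2 ± 15.4 in cLTP and 159.7 ± 7.46 in DMSO (0.593-fold, limma adjusted p = 0.0121). Without the block, Taok2 lost its call when cLTP 1, cLTP 3, DMSO 1 or DMSO 2 was left out (0.0602 to 0.0800), and Prkcd without DMSO 2 (0.0531).

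Of 16 genes of cadherin shedding and turnover, 1 was higher and 2 lower, and with the block 1 higher and 4 lower. Of all tested genes with a mean of at least 10, 6.68% were higher and 4.02% lower. With the block these shares were 15.1% and 12.8%. Arf6, a GTPase of cadherin endocytosis, was at 1161 ± 172 in cLTP and 696 ± 112 in DMSO (1.67-fold, limma adjusted p = 0.0150). Hook1, a microtubule adaptor, was at 273.6 ± 53.0 in cLTP and 403 ± 32.1 in DMSO (0.674-fold, limma adjusted p = 0.0337). Cbll1, an E3 ligase named Hakai that marks E-cadherin for uptake, was at 463, 461 and 429 in cLTP cultures and at 538, 567 and 569 in DMSO cultures (0.809-fold, limma adjusted p = 0.0417). Arf6 lost its call without cLTP 1 or cLTP 2 (0.0715 and 0.0583), Hook1 without each library except cLTP 3 (0.0735 to 0.142) and Cbll1 without each of the 6 (0.0849 to 0.143) and without culture 3 (0.0999).

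Of 16 factors that act in the choice of clustered protocadherin promoters, such as Ctcf and cohesin, Setdb1 was lower in limma. With the block 5 were lower, Setdb1 among them, and 2 higher. Of all tested genes with a mean of at least 10, 4.02% were lower without the block. With it 12.8% were lower and 15.1% higher. Setdb1, a histone methyltransferase that in mouse neurons protects the folding of the clusters, was at 714, 764 and 678 in cLTP cultures 1, 2 and 3 and at 971, 949.9 and 989 in DMSO cultures. The groups did not overlap (0.740-fold, limma adjusted p = 0.00742 without and 3.55e-05 with the block). Ctcf was at 739 ± 33.1 in cLTP and 835 ± 43.0 in DMSO (limma adjusted p = 0.235 without and 0.0365 with the block).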

How the data were processed

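Per the labels, mRNA libraries were made with a strand-specific kit from 3 cLTP and 3 DMSO cultures; one sentence there names sorted brain cells of operated animals, which goes against the other labels and was not used. The deposited table gives 1 signal value per gene and library. The submitters' processing notes name STAR, bcl2fastq, DESeq2 and build rn6; the sources used here give no versions, counting tool, strand setting or annotation. Dividing each library by its smallest step gave whole reads for 100% of values (tolerance 0.01), and these reads went into the count tests. The main test was limma 3.58.1 (R 4.3.3; trend and robust) on log2(value + 1) for genes with a mean of at least 1, with Benjamini-Hochberg adjustment over all 17315, two-sided, threshold 0.05; folds are on that scale and understate changes of low genes. edgeR 4.0.16 called 1627 genes on recovered reads and DESeq2 1.42.0 called 1629. Residuals of same-numbered cultures correlated at 0.22, 0.30 and 0.54 (each above 0.1), so the numbers were taken as pairs. The labels number the cultures alike in both groups but do not state a pairing, so this choice rests on the data. Of differently numbered pairs, cLTP 2 with DMSO 1 (0.19) and cLTP 1 with DMSO 2 (0.16) also lay above 0.1. Pairs of culture 3 with 1 or 2 ran from -0.37 to -0.29. Residuals were centred within each group, so a shift of culture 3 in both groups by itself raises each pairing of cultures 1 and 2. The limit of 0.1 thus could not tell the pairing of cultures 1 and 2 from the swapped one. The limma fits were also run on simulated counts with no culture effect and with changes larger than those called only with the block. Such counts do not bear on the pairing or on small changes. Alternatives covered the pseudocount, filter, scaling, test, block and samples.

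The genes and lists were chosen with earlier results of these data known. Values in every library are given for genes past the threshold, genes whose call differs with the block, and the 2 with the highest mean per subfamily; from partner lists, up to 3 higher and 3 lower genes are named, and Arvcf, Ctnna1, Mapk14 and Ctcf were named after their values were seen. Of 78 listed partner genes 76 matched the table, 1 (Ctnna3) by a synonym.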

Additional observations from a re-analysis of the deposited data

How the results depend on the processing

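Across the 56 genes 1080 refits kept their side of the threshold, 39 moved a gene past it, 1 moved a gene (Pcdh8) short of it, and none reversed a called direction. The number of the 56 past the threshold was 1, and also 1 with pseudocounts of 0.5 and 5, other filters, TMM scaling and member means of at least 1 (59 genes) or 50 (44 genes). It was 4 with columns rescaled to equal totals, which moved the median of all genes by -0.11 (log2), 3 after quantile normalization, 2 with edgeR, 2 with DESeq2, 10 with the replicate block, 2 without culture 3 of both groups, and 1 to 3 without 1 library. The additions were Pcdh1, Cdh11 and Cdh10 (equal totals), Pcdh1 and Cdh11 (quantiles), Pcdh1 without cLTP 3, and Cdh11 and Pcdh20 without DMSO 3. Without culture 3 of both groups the 2 were Pcdh1 and Cdh11, both lower, and Pcdh8 was not among them. With the block the number was 10, 5 and 6 without culture 1, 2 and 3, fits chosen after seeing the data. Listed partner genes past the threshold numbered 9, 16 with equal totals, 15 after quantiles, 24 with the block (26, 21 and 14 without culture 1, 2 and 3), and 5 to 8 without 1 library. The cause of these shifts was not tested. Over all genes 988 were higher and 573 lower, against 823 and 1322 with equal totals and 897 and 799 after quantiles; the partner genes split into 4 higher and 5 lower, against 4 and 12 with equal totals and 3 and 12 after quantiles. Type II cadherin sums had a log2 ratio of -0.16, or -0.27 with equal totals. For genes under about 30 counts, such as Pcdh12, Pcdh15 and Cdh23, depth limits what could be detected.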
